A study of Mus musculus with 6 samples.

Results

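The clustered protocadherin genes were examined in ATAC-seq peak lists from astrocyte nuclei of mouse primary visual cortex (V1). All protein-coding genes of the GENCODE mm10 annotation on chromosome 18 whose symbols begin with Pcdha, Pcdhb or Pcdhg were taken, which gave 57 of 21866 protein-coding genes: 14 in the alpha subcluster, 22 in the beta subcluster and 21 in the gamma subcluster. For each gene, the promoter was the start of its principal transcript, and a promoter had a peak in a library when a peak summit lay within 1 kb of it. All other peaks between 100 kb before the first gene and 100 kb after the last were also taken (mm10, chromosome 18, 36830184 to 37941873).

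Clustered protocadherins are cell surface adhesion proteins that bind copies of themselves on neighbouring cells, so that the set a cell makes works as an identity label. In the alpha and gamma subclusters, each variable exon has its own promoter and is spliced to constant exons shared by the whole subcluster, whereas each beta gene makes a protein without a shared constant part. Neurons are known to choose among the alternate promoters at random, through CTCF, cohesin and DNA methylation, while the 5 C-type genes (Pcdhac1, Pcdhac2, Pcdhgc3, Pcdhgc4 and Pcdhgc5) are used without that random choice. Astrocytes also make gamma-protocadherins.

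All 6 libraries came from GR fl/fl mice, which carry floxed alleles of Nr3c1, the gene of the glucocorticoid receptor (GR). The mice were injected at P0 to P1 with AAV2/5 carrying either Cre (GR-KO, 3 libraries) or the inactive ΔCre (GR-con, 3 libraries), with an EGFP-KASH nuclear tag, under the astrocyte-selective GfaABC1D promoter and with a 4x6T cassette. Each library held 50000 DRAQ5+ GFP+ nuclei sorted at P21 from V1 tissue of 3 to 4 mice, so a library is a pool of animals, and GFP marks transduced nuclei rather than nuclei shown to have lost GR. The comparison of the conditions asks whether promoters and regulatory sites of these genes are open to a different degree without astrocyte GR.

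Each list gave the fold enrichment of every peak over its local background, and this fold was ranked within its list, so that a percentile of 90 means that the peak lay above 90% of the peaks of that library. A promoter without a peak was set at percentile 0, which means that no peak passed the threshold of the caller, not that the chromatin was closed. Read counts were not used here, so depth is unknown, and the lists held 179462 to 198929 peaks. Because each list sums many nuclei, fewer nuclei with an open promoter and less opening per nucleus cannot be told apart.

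The sorted nuclei had astrocyte marker promoters with a peak in all 6 libraries for 10 of 10 genes. The mean percentile of this list was 65.7 to 67.6 in GR-con and 68.9 to 70.2 in GR-KO, without overlap. None of these genes had a site called by limma (lowest adjusted p = 0.298, at Gjb6). Of all promoters with a peak, 9.76% had every GR-KO percentile above every GR-con percentile. Promoters of other cells were also found: the neuronal list had a peak in all 6 libraries for 5 of 8 genes (mean percentile 39.9 to 45.4 in GR-con and 37.4 to 44.3 in GR-KO), and the lists of the oligodendrocyte lineage, microglia and endothelium for 1 of 6, 2 of 5 and 2 of 4. Neurod6, Sox10, Mog, Mbp, Mag, Cx3cr1, Csf1r, Aif1, Pecam1 and Tek had no peak in any library. Nr3c1 lies 1.57 Mb beyond the gamma subcluster and held 12 sites. The site with the greatest fall (39428181 to 39428581) had a fold of 14.3 to 17.4 in GR-con, against 6.68, no peak and 6.36 in the GR-KO libraries (limma adjusted p = 0.217). It was picked for its fall, and the other sites of the gene are not described here. The part that these differences have in the values below was not tested.

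The gamma subcluster had the highest share of promoters with a peak in every library. Of the 57 promoters, 21 had a peak in all 6 libraries, 25 had none in any library and 11 had one in some. Of the 21 gamma promoters, 18 had a peak in all 6 libraries and none was without one. Only 1 of 22 beta promoters and 2 of 14 alpha promoters had a peak in all 6, and 15 beta and 10 alpha promoters had none.

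**Figure D1:**
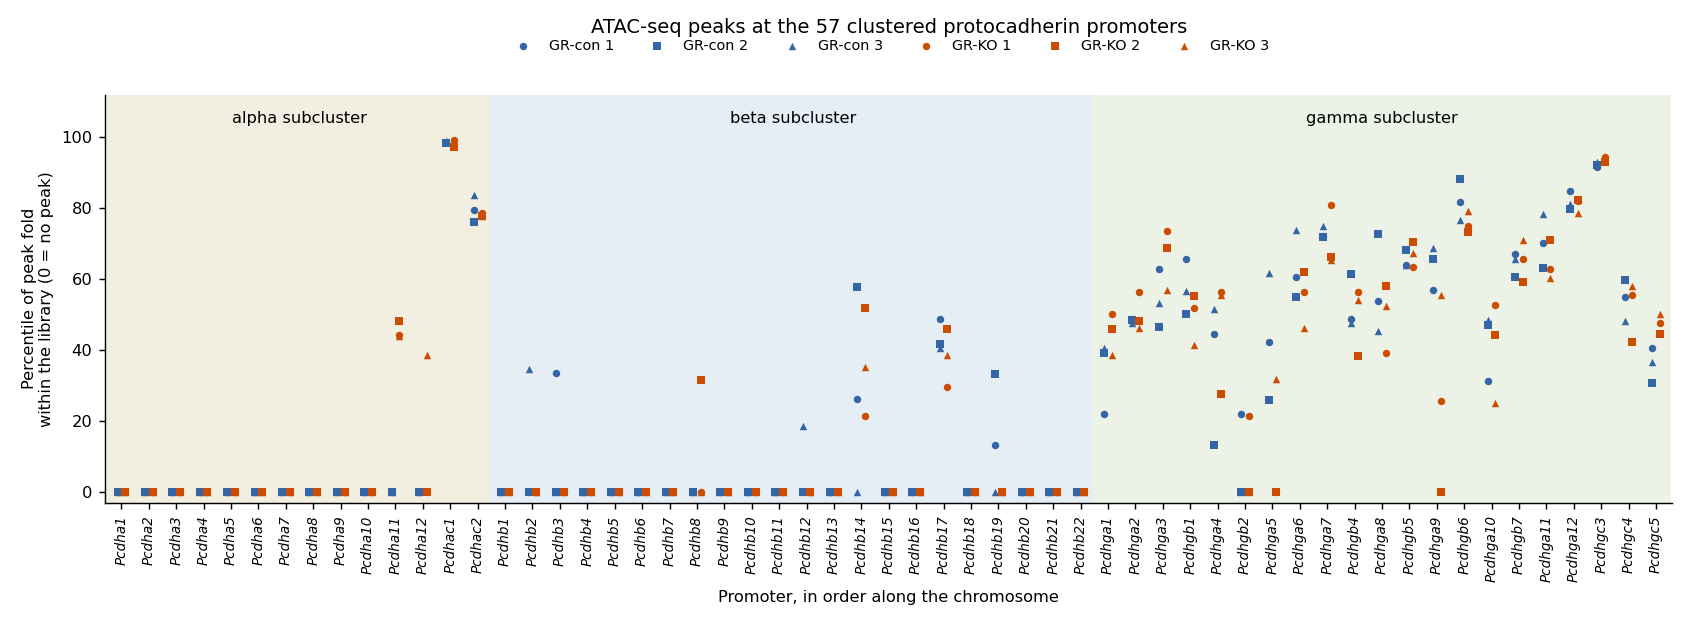
Percentile of the peak fold within each library (vertical axis, 0 for no peak) at the 57 promoters in order along the chromosome (horizontal axis). Each point is 1 library, with GR-con in blue and GR-KO in orange. The alpha and beta promoters lie mostly at 0 apart from Pcdhac1 and Pcdhac2, and the gamma promoters lie mostly between 20 and 95.

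The C-type promoters had a peak in every library (5 of 5). Pcdhac1 (promoter at 37090013, + strand, as are all of these genes) was the strongest of all 57, with folds of 25.5, 25.2 and 24.7 in GR-con, against 27.5, 22.7 and 23.0 in GR-KO. These peaks lay at percentiles 97.2 to 99.3, with the summit 33 to 54 bp upstream of the start. Pcdhgc3 (37806410), whose cytoplasmic part is known to bind Axin1 and dampen Wnt signalling, came next at 17.6, 18.2 and 17.1 in GR-con and 20.0, 18.2 and 18.2 in GR-KO.

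Pcdhac2 (37143503), which is needed for the spacing of serotonergic axons, had folds of 11.1, 9.91 and 11.6 in GR-con, against 10.6, 10.2 and 9.96 in GR-KO. Its peak was 1 broad interval of 971 to 1283 bp with the summit 405 to 423 bp downstream of the start. The other C-type promoters were weaker. Pcdhgc4 (37815079), on which the survival of cortical interneurons depends, had folds of 5.44, 6.10 and 4.23 in GR-con and 5.31, 4.06 and 5.61 in GR-KO. Pcdhgc5 (37819513) was the lowest, at 4.03, 3.39 and 3.52 in GR-con and 4.45, 4.22 and 4.66 in GR-KO. The 5 C-type promoters thus spanned percentiles 30.7 to 99.3 in single libraries.

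Among the 12 alternate alpha promoters, 10 had no peak in any library: Pcdha1, Pcdha2, Pcdha3, Pcdha4, Pcdha5, Pcdha6, Pcdha7, Pcdha8, Pcdha9 and Pcdha10. Pcdha12 had a single peak in GR-KO 3 (fold 3.74). Pcdha11 had a peak in the GR-KO libraries and is described with the comparison of the conditions. The whole alternate alpha interval (158.8 kb) held 0 summits in each GR-con library and 1, 1 and 2 in the GR-KO libraries, all of them at these 2 promoters.

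Of the 22 beta promoters, Pcdhb17 (37484795) was the only one with a peak in all 6 libraries, with folds of 4.72, 4.14 and 3.72 in GR-con, against 3.25, 4.35 and 3.74 in GR-KO. Its summits lay 135 to 150 bp downstream of the start. Pcdhb14 (37447656) had folds of 3.21 and 5.83 and no peak in GR-con 1, 2 and 3, against folds of 2.89, 4.92 and 3.55 in GR-KO. These 2 promoters were the highest of the subcluster by mean percentile (40.9 and 32.1), followed by Pcdhb19 at 7.75.

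Pcdhb19 had a peak in GR-con 1 and 2 only (fold 2.65 and 3.57), Pcdhb2 and Pcdhb12 in GR-con 3, Pcdhb3 in GR-con 1 and Pcdhb8 in GR-KO 2. The remaining 15 (Pcdhb1, Pcdhb4, Pcdhb5, Pcdhb6, Pcdhb7, Pcdhb9, Pcdhb10, Pcdhb11, Pcdhb13, Pcdhb15, Pcdhb16, Pcdhb18, Pcdhb20, Pcdhb21 and Pcdhb22) had none. Each library thus listed 2 to 4 beta promoters.

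The gamma subcluster was open along its length. Of its 12 A-type promoters, 10 had a peak in all 6 libraries, and of its 6 B-type promoters, 5 did. The highest after Pcdhgc3 were Pcdhga12 (37765580), with folds of 13.5, 11.3 and 10.5 in GR-con and 12.03, 11.97 and 10.2 in GR-KO, and Pcdhgb6 (37742094), with 12.05, 15.4 and 8.95 in GR-con and 9.32, 8.71 and 10.5 in GR-KO. The least open was Pcdhgb2, with a peak in GR-con 1 and GR-KO 1 only (fold 3.02 and 2.89).

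The percentile of the 18 alternate gamma promoters tended to be higher towards the 3′ end of the array. Across these promoters, Spearman's rho between order along the chromosome and percentile was 0.54, 0.66 and 0.62 in the GR-con libraries and 0.37, 0.42 and 0.55 in the GR-KO libraries. This is a description of 18 promoters that share each library, and some of them are similar in sequence. The order of the 21 gamma promoters by percentile was alike between libraries, with rho of 0.67 to 0.87 over the 6 pairs within a condition and of 0.60 to 0.85 over the 9 pairs across conditions.

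Library by library, the share of promoters with a peak was lower in alpha than in gamma by 75.4 percentage points on average (64.3 to 85.7 points) and lower in beta than in gamma by 81.6 points (72.1 to 86.1 points). C-type promoters exceeded alternate promoters by 60.9 points (57.7 to 63.5 points). The alternate class pools alpha, beta and gamma promoters, and the beta subcluster has no C-type gene. Within gamma, 83.3 to 100% of alternate promoters had a peak in single libraries, against 100% of C-type promoters. Within alpha, these shares were 0 to 16.7% and 100%. The differences of alpha and beta from gamma, and of C-type from alternate promoters, each had the same direction in 6 of 6 libraries. For each, the exact two-sided sign-flip permutation test gave p = 0.031, the smallest that 6 libraries allow. After Benjamini-Hochberg adjustment over 5 comparisons it was 0.0391. All libraries score the same promoters of the same genome, so this test asks only whether the libraries repeat a difference. Alpha and beta did not differ beyond the spread between libraries, with a mean difference of 6.17 points, higher in alpha in 5 of 6 libraries (exact permutation p = 0.156, adjusted 0.156). GR-con and GR-KO values lay apart here, at -3.90, 0.649 and 0.649 points in GR-con and 12.3, 7.79 and 19.5 points in GR-KO. They also lay apart for alpha minus gamma, at -85.7, -81.0 and -81.0 points in GR-con and -73.8, -64.3 and -66.7 points in GR-KO, and neither gap between the conditions was tested. Alpha had 2 promoters with a peak in each GR-con library and 3, 3 and 4 in GR-KO, through Pcdha11 and, in GR-KO 3, Pcdha12. Both gaps thus count in part the Pcdha11 peaks described below and are not separate observations.

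**Figure D2:**
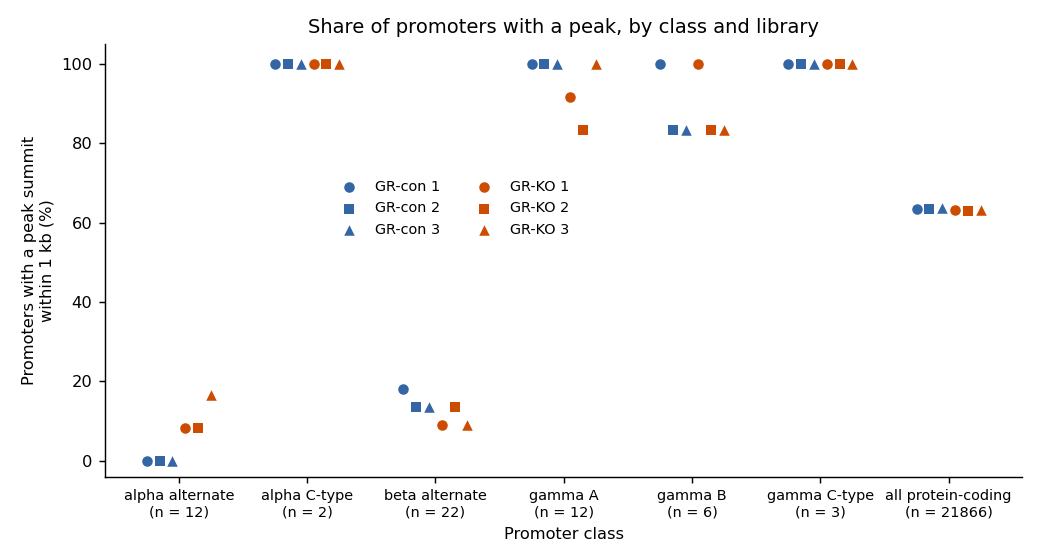
Share of promoters with a peak summit within 1 kb (vertical axis, %) in 6 protocadherin classes and in all protein-coding genes (horizontal axis, with the number of promoters), 1 point per library. The beta and alternate alpha classes lie at 0 to 18.2%, and the gamma and C-type classes at 83.3 to 100%.

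Against other protein-coding genes, the 57 promoters were less often listed, by 18.9 percentage points on average (16.2 to 20.9 points, 6 of 6 libraries, exact permutation p = 0.031, adjusted 0.0391). Here too the test asks only whether the libraries repeat the difference. Each library had a peak at 24 to 27 of the 57 promoters, and at 62.9 to 63.7% of all protein-coding promoters. Where they had a peak, it was weaker: the median percentile was 54.8 to 59.6 at the member promoters with a peak and 89.4 to 90.5 over all protein-coding promoters with one. The peaks were also narrower, with a median width of 249 to 432 bp in single libraries, against 815 to 889 bp over all promoters with a peak.

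The 12 protocadherin genes outside the clusters, which lie singly in the genome, had a peak in all 6 libraries at 10 promoters and in none at Pcdh12, an endothelial protocadherin. Over the 11 with a peak in any library, the mean percentile of the 6 libraries ran from 18.5 at Pcdh15, which had a peak in 3 of them, to 90.4 at Pcdh9, with a median of 80.0.

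In base composition, alternate alpha promoters resembled gamma promoters more than beta promoters. Within 500 bp of the start, the median ratio of observed to expected CpG was 0.69 in the alternate alpha promoters, 0.38 in beta and 0.59 in gamma, and it was 0.57 over all protein-coding promoters. GC content had medians of 45.5% in the alternate alpha, 41.5% in beta, 46.5% in the alternate gamma and 55.8% in the C-type promoters, against 55.2% overall. The 10 alternate alpha promoters without a peak had CpG ratios of 0.64 to 0.75, within the range of the 18 gamma promoters with a peak in every library (0.23 to 0.86).

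**Figure D3:**
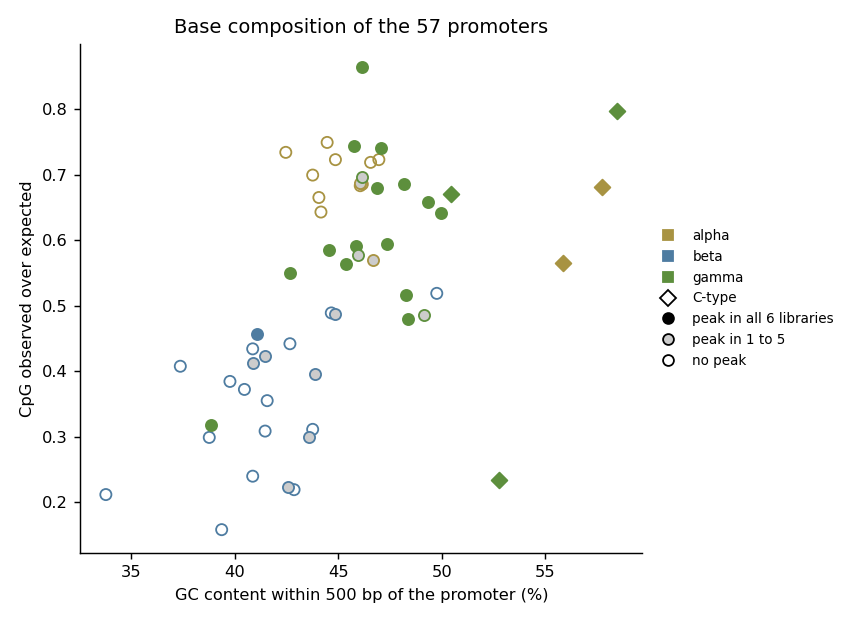
Observed over expected CpG (vertical axis) against GC content (horizontal axis, %) within 500 bp of each of the 57 promoters. Filled symbols had a peak in all 6 libraries, grey ones in 1 to 5 and open ones in none. The open alpha circles overlap the filled gamma circles in CpG ratio, and most beta circles lie below 0.5.

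Similar sequences within the clusters limit where reads can be placed, because reads with several matches were not kept. Counted as the share of 32-mers found once in the genome, 71.5 to 88.9% of the sequence around the alternate alpha promoters was unique, against a median of 100% over all promoters. Among gamma promoters with a peak in every library the range was 70.4 to 100%, with Pcdhgb4 at 70.4%. The 15 beta promoters without a peak had a median of 99.5% (83.1 to 100%). A part of low uniqueness in the absence of alpha peaks was not tested.

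The core consensus of CTCF, the architectural protein that links these promoters to their enhancers, was found with at most 1 mismatch on either strand within 500 bp of Pcdha1, Pcdha5, Pcdhb8 and Pcdhgb1, which is 7.02% of the 57 promoters against 11.9% of all promoters. The GR motif, the consensus to which GR binds as a dimer, was found at 0 of the 57 and at 0.586% of all promoters. No match means only that these letters are not in the window.

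Joining the lists gave 59 sites in the region, of 133271 in the genome, each reaching 200 bp to either side of a summit and covered over more than 200 bp by a peak in at least 2 libraries. Of these, 32 lay within 1 kb of a member promoter and 27 did not. The rule drops narrow peaks and peaks of a single library, so only 22 of the 32 member promoters with a peak had a site. The density was 5.31 sites per 100 kb, close to the 4.89 of the genome, but the sites were unevenly placed. No site lay from the start of the region to the Pcdhac1 promoter, a stretch of 259.8 kb, or between a site downstream of the alpha constant exons and the promoter of Taf7, a stretch of 425.9 kb that holds all 22 beta genes. These stretches were not without peaks. The beta interval held 2 to 4 summits per library and the alternate alpha interval 0 to 2, but none of these peaks met the rule for a site. The alternate gamma interval had 17.98 sites per 100 kb and the gamma C-type and constant interval 30.2.

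**Figure D4:**
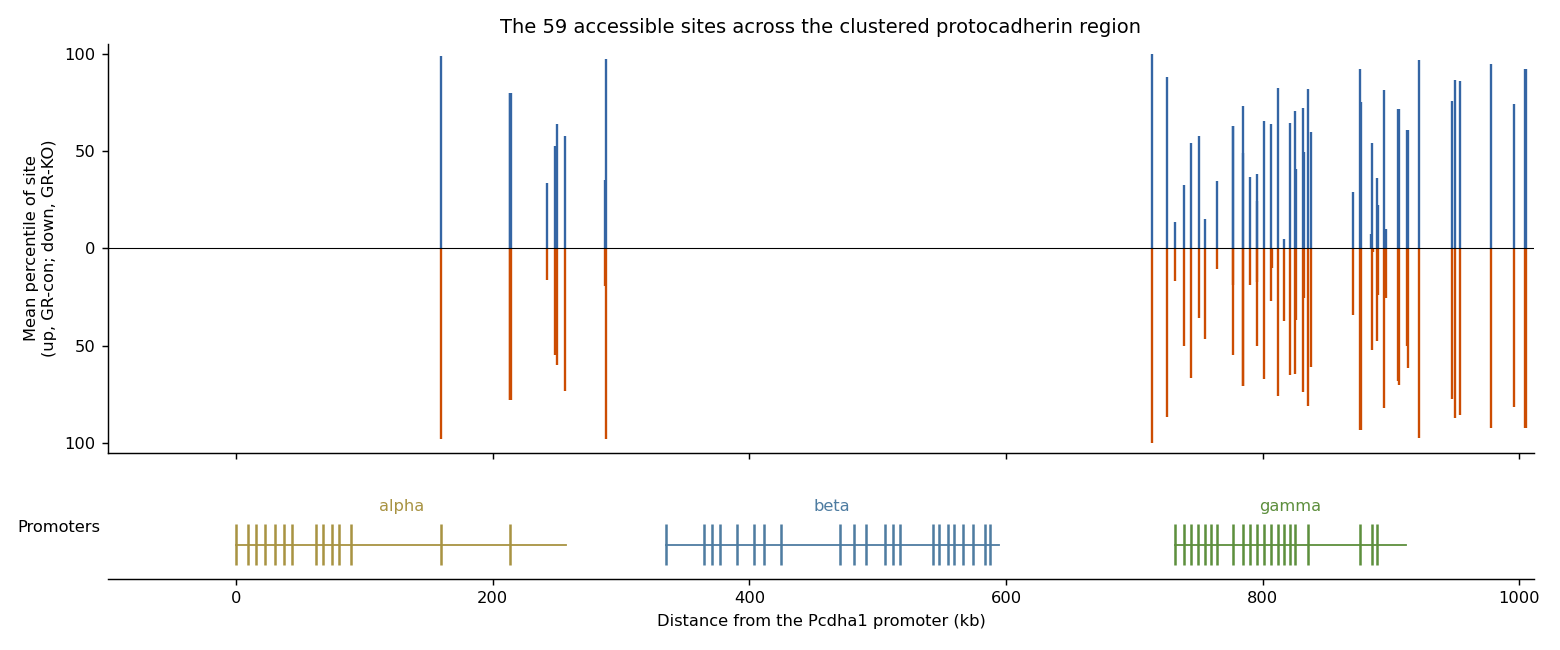
Mean percentile of each of the 59 sites (vertical axis, upwards for GR-con in blue and downwards for GR-KO in orange) against distance from the Pcdha1 promoter (horizontal axis, kb), with the member promoters as ticks in the lower panel. The alternate alpha and the beta arrays hold no site, although some peaks that did not meet the rule for a site were listed there. The blue and orange heights are alike at most sites.

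The strongest site outside the member promoters was the promoter of Taf7 (37644040 to 37644440), an intronless gene between the beta and gamma arrays that encodes a subunit of the general factor TFIID, at percentiles 99.7 to 100. The next lay 30697 bp beyond the alpha constant exons (37218158 to 37218558, intergenic), with folds of 22.1, 23.7 and 23.4 in GR-con and 24.6, 23.8 and 22.2 in GR-KO. An enhancer of the alpha subcluster that is bound by CTCF is known downstream of those exons, and whether this site is that element was not tested. The site holds the CTCF core consensus with at most 1 mismatch.

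Beyond the gamma constant exons, 10 sites lay in the last 100 kb, 8 of them in introns of Diaph1 or at its start, where elements that act on the beta and gamma genes are known. Diaph1 encodes a formin that builds actin filaments. The strongest (37852056 to 37852456) lay in a Diaph1 intron, at folds of 22.6, 21.2 and 22.7 in GR-con and 24.5, 22.3 and 23.3 in GR-KO, and also holds the CTCF core consensus. A second intronic site (37908067 to 37908467) had folds of 19.6, 18.1 and 22.4 in GR-con and 17.7, 18.5 and 16.8 in GR-KO, overlapping between conditions. The Diaph1 promoter (37934812 to 37935678, 2 sites under 1 peak) lay at percentiles 91.6 to 93.3. Slc25a2, which encodes a mitochondrial ornithine carrier, had no promoter peak.

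In all, 4 of the 59 sites (6.78%) held the CTCF core consensus, against 15.3% of sites in the genome. The GR motif was at 0 of 59 and at 0.500% of sites in the genome.

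The number of these promoters with a peak did not differ between GR-KO and GR-con beyond the spread between libraries. The GR-con libraries listed 27, 25 and 25 of the 57 promoters (25.7 ± 1.15, SD, n = 3) and the GR-KO libraries 25, 24 and 26 (25.0 ± 1.00, SD, n = 3). The difference of -0.667 promoters was within the spread between libraries (exact two-sided permutation test, p = 0.7, where 3 against 3 allow no p below 0.1). The mean percentile over the 57 promoters was 26.1, 25.4 and 26.2 in GR-con and 25.3, 24.6 and 25.6 in GR-KO, a difference of -0.706 (exact permutation p = 0.2) whose sign turned with lists cut to equal length (0.029, exact permutation p = 1). With peaks of a q-value under 0.01 it was -0.973 (exact permutation p = 0.1, the smallest possible). Of the other sites, 22, 26 and 26 had a peak in the GR-con libraries and 24, 24 and 26 in the GR-KO libraries (difference 0, exact permutation p = 1).

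Site by site, limma called 0 of the 59 at an adjusted p under 0.05, where 0.337% of all sites were called lower and 0.186% higher in GR-KO. The 59 sites covered only 22 of the 32 member promoters with a peak. The lowest adjusted p of the region was 0.314. At an unadjusted p under 0.05 there were 5 of 59 sites, against 12.1% of all sites. The median difference in normal score (GR-KO minus GR-con, a rank turned into a normal deviate) was 0.045 over the 59 sites and 0.030 over all sites. Over promoters with a peak in any library, the median difference in percentile was -1.63 for the 32 members and 0.163 for all 14395.

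Pcdha11 was the promoter that stood apart. In GR-con 1, 2 and 3 it had no peak, and in GR-KO 1, 2 and 3 it had a peak with folds of 4.15, 4.54 and 4.12, at percentiles 44.2, 48.1 and 44.0. The summits lay 68 to 78 bp upstream of the start (37010752), and the −log10 p-values of the caller were 9.19, 10.4 and 8.81, where the lists begin at 2.00. It was 1 of 3 promoters among the 14395 with a peak in any library that had a peak in every GR-KO and no GR-con library (0.0208%), and 0.139% showed the reverse, none of them a member.

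These peaks were 157 to 186 bp wide and so could not cover more than 200 bp of a site, which left Pcdha11 without a site among the 59. With an overlap of 1 bp it was called higher in GR-KO, by 1.27 ± 0.169 (SE) in normal score (limma adjusted p = 0.0486), in a fit that called 0.0857% of sites higher and 0.183% lower. With the peak chosen by its summit the difference was 1.37 ± 0.216 (SE), with an adjusted p of 0.0593. The call therefore depends on the rule that joins peaks to sites, and the size of the difference depends on the score given to a library without a peak. The site entered these fits through its GR-KO peaks alone, and all its GR-con values are that score. The difference and its p-value thus restate the pattern of peaks and are not separate support for it. Around Pcdha11, 74.0% of 32-mers were unique.

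Promoters whose conditions did not overlap were no more frequent among the members than in the genome. Of the 32 member promoters with a peak in any library, every GR-KO percentile was above every GR-con percentile at 2 (Pcdha11 and Pcdhgc5), against 9.76% of all promoters with a peak, and below at 1 (Pcdhga9), against 5.3%. At Pcdhgc5 the percentiles were 40.7, 30.7 and 36.8 in GR-con and 47.5, 44.5 and 50.0 in GR-KO, and its site differed by 0.29 ± 0.129 (SE) in normal score (limma adjusted p = 0.424). At Pcdhga9 (37736936) they were 56.8, 65.5 and 68.7 in GR-con and 25.8, 0 and 55.6 in GR-KO (-0.68 ± 0.287, SE, adjusted p = 0.414).

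**Figure D5:**
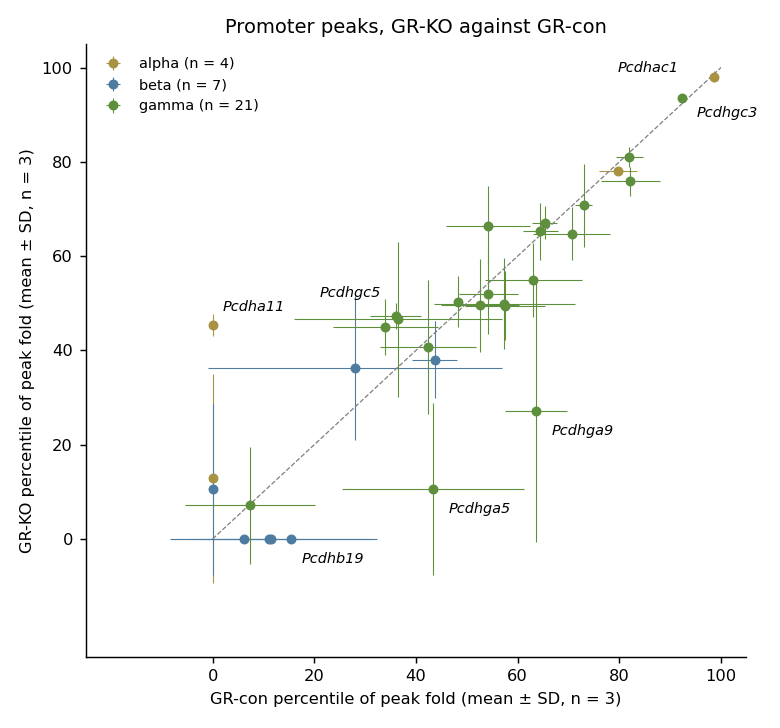
Mean percentile in GR-KO (vertical axis) against GR-con (horizontal axis) for the 32 promoters with a peak in at least 1 library, with SD over 3 libraries as bars. The dashed line marks equal values, and bars reach below 0 where a library had no peak. Pcdha11 lies at 0 in GR-con and at 45.4 in GR-KO, and Pcdhga5 and Pcdhga9 lie below the line with wide bars.

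Other gamma promoters varied between libraries of one condition as much as between conditions. Pcdhga5 (37694380) had percentiles of 42.2, 26.1 and 61.8 in GR-con and a peak in GR-KO 3 only (31.8), with a site difference of -0.39 ± 0.376 (SE, limma adjusted p = 0.701). At Pcdhga6 (37707039), the site 24 bp upstream of the start had percentiles of 60.6, 55.0 and 73.7 in GR-con and 56.4, 0 and 0 in GR-KO (-0.87 ± 0.346, SE, adjusted p = 0.405). In the promoter window of Pcdhga6 all 6 libraries had a peak, with several summits in each. The summits scored lay 429 bp downstream, 1 bp upstream and 24 bp upstream of the start in GR-con 1, 2 and 3. In GR-KO they lay 204 to 221 bp downstream.

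In the opposite direction, the site at Pcdhga10 (37746993) had the smallest p of the region, with percentiles of 14.8, 0 and 0 in GR-con and 52.8, 44.4 and 15.5 in GR-KO (0.78 ± 0.245, SE, limma adjusted p = 0.314). These zeros are not an absence of peaks: all 3 GR-con libraries had a peak within 1 kb, and that of GR-con 3, with a fold of 4.27 and a summit 27 bp upstream, was 192 bp wide and so too narrow for the site to be counted. Over the promoter window the percentiles overlapped, at 31.4, 47.1 and 48.5 in GR-con and 52.8, 44.4 and 25.1 in GR-KO. Pcdhga4 (37685210) was similar, with site percentiles of 44.6, 0 and 0 in GR-con and 56.4, 27.6 and 55.6 in GR-KO (0.78 ± 0.323, SE, adjusted p = 0.412) and a window peak in every library. Pcdhgb6, the third of the sites that leaned lower, differed by -0.22 ± 0.159 (SE, adjusted p = 0.616).

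Away from promoters, 2 sites had an unadjusted p under 0.05, both higher in GR-KO and without overlap between conditions. The first lay in the 3′ untranslated exon that all 14 alpha transcripts share (37186764 to 37187164), at percentiles 42.1, 62.5 and 68.7 in GR-con and 72.9, 71.9 and 74.8 in GR-KO (0.45 ± 0.157, SE, limma adjusted p = 0.368). The second lay in a Diaph1 intron (37925664 to 37926064), at percentiles 79.8, 72.4 and 69.7 in GR-con and 82.2, 80.7 and 81.3 in GR-KO (0.31 ± 0.118, SE, adjusted p = 0.398). The site of next smallest p in this direction lay in the coding exon of Pcdhgc4 (37816028 to 37816428), without a peak in GR-con and at percentiles 0, 3.86 and 2.36 in GR-KO (0.41 ± 0.197, SE, adjusted p = 0.452). It entered the fit through its GR-KO peaks alone, so its difference is no separate support for a change. In all, 4 of 59 sites lay entirely higher in GR-KO and 3 entirely lower, against 7.18% and 10.2% of all sites.

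Of the sites that leaned lower, Taf7 differed by -0.32 ± 0.212 (SE, limma adjusted p = 0.588), the second Diaph1 site by -0.27 ± 0.167 (SE, adjusted p = 0.564), and an intergenic site 922 bp beyond the gamma subcluster by -0.15 ± 0.188 (SE, adjusted p = 0.784). The site downstream of the alpha constant exons differed by 0.068 ± 0.116 (SE, adjusted p = 0.845) and the strongest Diaph1 site by 0.15 ± 0.119 (SE, adjusted p = 0.645).

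Most genes that act on or with the clusters had a promoter peak. Of 19 genes for CTCF, cohesin, its loader and release factors, DNA methyltransferases and silencing factors such as Smchd1 and Setdb1, 18 had a promoter peak in all 6 libraries, with a median percentile of 89.8 over genes with a peak. Of 14 partners and effectors, among them the protease Adam10 that cuts protocadherins and the kinases Ptk2 and Ptk2b that they inhibit, 13 had a peak in all 6, with a median of 92.7, and Ptk2b had one in a single library. In both lists limma called 0 sites lower and 0 higher, over 18 and 13 genes with a site, against 0.337% and 0.186% of all sites, shares too small for 0 calls to say anything of lists this short. Ctcf (0.11 ± 0.06, SE, limma adjusted p = 0.495) and Smchd1 (0.13 ± 0.07, SE, adjusted p = 0.472) are examples.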

How the data were processed

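ATAC-seq was compared between 3 GR-con and 3 GR-KO libraries, grouped by the labels. The authors used version 2.2.0 of ENCODE's ATAC-seq workflow on mm10, kept no multimapping reads and called peaks per library at a p threshold of 0.01. Each deposited list gives per peak a capped score, a fold, which is a ratio over local background, and p- and q-values as −log10. Deposited lists hold no counts, so edgeR, which the authors used, was not run.

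Folds were ranked within each list. Sites around summits, with a peak covering more than 200 bp of them in at least 2 libraries, were compared as normal scores with limma 3.58.1 (R 4.3.3, variance trend, Benjamini-Hochberg over all sites), tested on simulated data. Shares were compared by exact permutation over libraries (scipy 1.17.1), and p-values measure spread between pools. GC, CpG, unique 32-mers and motifs were read from GRCm38, in which 0 of 1116429 peaks passed a chromosome end. One gene that GENCODE names Pcdha11 is Pcdha10 in RefSeq and is called so, and Pcdhgb8 is a pseudogene in GENCODE and was left out.

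Named were the C-type genes, the 3 highest and all unlisted promoters of each subcluster, promoters listed in all libraries of one condition and at most 1 of the other, and, in each direction, the 3 promoter and 3 other sites of smallest p, with the 6 highest other sites. Members and lists were chosen with earlier results of these data known. One gene of the list of partners and effectors is not reported here.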

Additional observations from a re-analysis of the deposited data

How the results depend on the processing

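Promoter windows of 500 bp and 2 kb, promoters at the start of the gene, a q-value under 0.01 and equal list lengths kept every difference between subclusters and types on its side of 0.05. The windows and the start of the gene left the member values of both conditions as they were. Without one library, the smallest p that 5 libraries allow is 0.0625, so these calls passed no threshold by construction, and the values were -77.6 to -73.3 percentage points for alpha minus gamma, -83.5 to -80.6 for beta minus gamma, 60.4 to 61.5 for C-type minus alternate and -19.5 to -18.5 for members minus other genes. The mean promoter percentile changed sign with equal list lengths, to 0.029 (GR-KO minus GR-con), and the cause was not tested, while it was -0.973 with a q-value under 0.01. With an overlap of 1 bp, 1 site of the region was called, at Pcdha11, as against 0 under the other settings, among them sites in at least 3 libraries, no variance trend, ranks by −log10 p, each library left out and peaks chosen by their summit, which was added after seeing the data. The called site entered the fit through its GR-KO peaks alone, so the call restates the pattern of peaks. The lowest adjusted p of the region was 0.107 to 0.339 without one library. Under ranks by −log10 p and a q-value under 0.01 the Pcdha11 difference was 36.0 and 40.9 percentiles instead of 45.4.

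The labels do not say whether equal replicate numbers pair samples. Deviations from the condition means correlated at 0.035, -0.0099 and 0.020 for equal numbers and at -0.045 to 0.027 for other numbers. The replicate block changed no call, with differences of -0.667 promoters (exact p of 3 pairs, at best 0.25), -0.706 percentiles and 0 other sites, and 0 sites called. The lists give no depth, so an unlisted promoter may lie just under the threshold of the caller.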
